A study of Mus musculus with 15 samples.

Results

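The genes described here handle vitamin A: they take up retinol and its plant precursors, store them as esters or turn them into retinoic acid. There are 9 of them, Rbp2, Bco1, Lrat, Rdh7, Rdh9, Adh1, Aldh1a1, Aldh1a3 and Dhrs3, found by symbol among the 45905 genes of each of the 2 reads-per-gene tables, 1 for organoids and 1 for gut tissue. They were selected partly on values measured in these libraries, namely Adh1 in the organoids and Rdh9 in the gut. For that reason their differences between Tamoxifen and the other organoids, and between both gut groups, are given as a description with no test, while the comparison of DMSO with nativ organoids took no part in the choice and is tested.

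Poly(A) RNA was sequenced in 15 mouse libraries, 3 in each of 5 groups. An organoid is a cultured epithelial structure, here grown out of mouse gut. Organoids called Tamoxifen are coded T41 and titled iVilCre ERT2JUPfl/fl, that is a floxed Jup gene (plakoglobin, a junction protein) with a Cre recombinase that the villin promoter restricts to intestinal epithelium and tamoxifen activates. The DMSO and nativ organoids both carry the code T75 with the title JUPfl/fl, which names floxed Jup and no Cre. DMSO usually serves as the solvent of a drug, and what nativ stands for is not given in the sources used here. Each organoid group has a single code, so its 3 libraries may come from 1 animal or culture, and the p-values below then measure only the spread between these libraries. Tamoxifen organoids differ from both T75 groups in code, Cre and drug at once, and these cannot be told apart. The gut libraries are described as ctr (codes T50, T51 and T52) and PG_KO (T47, T48 and T56). Their titles conflict with this, since the ctr libraries are titled iVilCre ERT2JUPfl/fl and the PG_KO libraries DSS colitis JUPfl/fl, where DSS (dextran sodium sulfate) is a chemical that damages the colon. The descriptions were followed here. Which mice received DSS is unclear from these conflicting labels, and the age of any animal is not given in the sources used here. Cre and DSS may differ between ctr and PG_KO gut along with Jup, and these cannot be told apart.

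Jup itself was measured at 69.0 to 71.2 CPM (a gene's reads scaled by the library's total) in Tamoxifen organoids against 275 to 414 CPM in T75 organoids. It stood at 75.2 to 82.8 CPM in PG_KO and 302 to 495 CPM in ctr gut, so low Jup went with the descriptions. Totals were 23194385 to 30744563 reads per library. The 10 listed small intestinal enterocyte markers summed to 8976 to 9826 CPM in Tamoxifen organoids and to only 12.0 to 20.4 CPM in T75 organoids, where the defining brush border sucrase gene Sis lay under 3 CPM in every library. T75 organoids instead carried 1598 to 2620 CPM of 4 bile and pancreatic duct markers, against 89.5 to 92.6 in Tamoxifen organoids. Gut libraries expressed all 5 colon markers (summed 713 to 1953 CPM) and, like T75 organoids, hardly any Sis (at most 0.515 CPM), and they contained fibroblast, muscle and lymphocyte RNA. In bulk RNA, fewer cells of a type and less RNA per cell cannot be told apart.

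Vitamin A reaches the enterocyte as retinol from hydrolysed retinyl esters or as carotenoids such as beta-carotene. BCO1 cleaves beta-carotene to retinal, RBP2 binds retinol and retinal inside the cell, and LRAT esterifies retinol for export in chylomicrons. RDH and ADH enzymes oxidise retinol to retinal, ALDH1A enzymes oxidise retinal to retinoic acid, and DHRS3 reduces retinal back to retinol. Retinoic acid then acts on gene expression through nuclear receptors, and in the intestine it induces ISX, a transcription factor that represses Bco1.

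Promoters of Bco1 and Rbp2, the carotenoid enzyme and the enterocyte retinol-binding protein, are shown as examples. Both genes were higher in Tamoxifen than in T75 organoids, and so were Adh1, Lrat and Rdh7, whose promoters are not printed. The 250 bases before the start were taken from RefSeq for 8 of the 9 genes. Aldh1a3 had no entry. Capitals mark matches on either strand to the nuclear receptor half-site (AGGTCA, or the letters AGTTCA, or the letters GGGTCA, or the letters GGTTCA) or to a core of the HNF4 site (CAAAGT). The Bco1 window is GRCm38.p6 chr8:117095615-117095864 and the Rbp2 window chr9:98490287-98490536, both on the plus strand.
Bco1: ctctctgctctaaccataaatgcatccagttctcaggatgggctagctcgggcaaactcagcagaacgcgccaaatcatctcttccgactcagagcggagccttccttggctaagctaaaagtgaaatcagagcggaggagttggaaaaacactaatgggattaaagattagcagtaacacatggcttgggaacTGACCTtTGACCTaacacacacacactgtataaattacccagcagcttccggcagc
Rbp2: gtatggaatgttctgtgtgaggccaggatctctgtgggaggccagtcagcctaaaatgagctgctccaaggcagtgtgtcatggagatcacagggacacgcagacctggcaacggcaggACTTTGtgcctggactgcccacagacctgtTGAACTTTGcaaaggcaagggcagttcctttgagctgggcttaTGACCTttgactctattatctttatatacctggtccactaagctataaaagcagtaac
Bco1 holds 2 copies of AGGTCA in the same direction with 1 base between them, 56 and 49 bases before the start on the opposite strand. Such a direct repeat with exactly 1 base between copies was found in 11 of 32851 RefSeq promoters of this length (0.0335%). Spacings of 2, 3, 4 and 5 bases were searched as well, and each matched 0 members. In Rbp2 the second stretch of capitals joins a half-site and an HNF4 core that overlap. Single half-sites are common: 38.6% of promoters held 1 or more, and so did 6 of the 12 listed promoters of the 8 members (50%), some members having several starts. The HNF4 core was in 12.6% of promoters and in 4 of the 12. Motifs of other intestinal factors were in 25.5% and 5 of 12 (CDX, the letters TTTATG, or the letters TTTATT), 9.99% and 4 of 12 (GATA, the letters AGATAA) and 6.43% and 2 of 12 (HNF1, the letters GTTAAT), and a TATA box (the letters TATAAA) in 12.4% and 2 of 12. Windows of close starts overlap: in Dhrs3, 1 HNF1 match and 1 HNF4 core are each counted in 2 windows. By gene, the HNF4 core was in 3 of the 8 members (Rbp2, Aldh1a1 and Dhrs3) and HNF1 in 1 of 8. Half-sites were in Rbp2, Bco1, Rdh7, Rdh9 and Aldh1a1. Adh1 and Lrat held 0 half-sites and 0 HNF4 cores, and Lrat matched none of the listed motifs. These matches are a description of letters, and no factor binding was measured.

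Rbp2 and Lrat, members for retinol binding and esterification, were higher in Tamoxifen organoids than in T75 organoids. Rbp2 (gene ID 19660, chr9:98490537-98509771), the intestinal cellular retinol-binding protein, was measured at 58.2, 64.7 and 54.6 CPM in Tamoxifen replicates 1, 2 and 3, at 0.880, 3.26 and 2.79 CPM in DMSO and at 3.24, 3.57 and 3.06 CPM in nativ organoids. All 3 Tamoxifen libraries lay above all 6 T75 libraries, and the Tamoxifen mean (59.2 CPM ± 5.16 SD, n = 3) was 25.6-fold the DMSO mean and 18.0-fold the nativ mean. In gut, Rbp2 read 12.0, 10.4 and 6.35 CPM in ctr and 2.43, 1.11 and 5.30 CPM in PG_KO. These gut groups did not overlap, although ctr replicate 3 and PG_KO replicate 3 stood close. The fitted log2 change was -1.67, or -2.36 without PG_KO replicate 3.

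Lrat (gene ID 79235, chr3:82892582-82903974), which makes retinyl esters, was measured at 1.94, 2.11 and 2.58 CPM in Tamoxifen organoids. It had 3 reads in all over the DMSO libraries and 1 read over the nativ libraries. The summed reads gave a ratio of 62.5 against DMSO (95% exact counting interval 21.1 to 306) and of 194 against nativ (34.4 to 7698), intervals that cover counting error only. In ctr gut Lrat stood at 3.01, 2.76 and 1.45 CPM, a range that overlapped that of Tamoxifen organoids, and in PG_KO gut at 0.211, 0.435 and 0.649 CPM. Every PG_KO library was lower than every ctr library, with a log2 change of -2.45.

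Bco1 (gene ID 63857, chr8:117095851-117133720), the enzyme that splits beta-carotene, stood at 46.6, 52.9 and 50.3 CPM in Tamoxifen organoids. It was at 0.914, 0.516 and 0.819 CPM in DMSO and at 0.885, 1.25 and 0.870 CPM in nativ organoids, so the Tamoxifen mean was 66.6-fold and 49.9-fold higher. Gut levels were low in both groups, at 1.97, 2.33 and 3.33 CPM in ctr and 2.68, 2.65 and 3.45 CPM in PG_KO. These ranges overlapped, and the log2 change was 0.21, or 0.51 without ctr replicate 3 and 0.03 without ctr replicate 1.

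Among the retinol-oxidising genes, Adh1 (gene ID 11522, chr3:138277585-138290698), a class I alcohol dehydrogenase that oxidises retinol along with ethanol, spanned the widest range. Tamoxifen organoids held 201, 212 and 193 CPM, DMSO organoids 0.0677, 0.0794 and 0.164 CPM (2, 2 and 5 reads), and nativ organoids 0.655, 0.451 and 0.452 CPM. This is a measured value that chose the genes: the Tamoxifen mean was 1951-fold the DMSO mean and 389-fold the nativ mean. Ctr gut, at 152, 354 and 263 CPM, spanned the level of Tamoxifen organoids. In PG_KO gut Adh1 was measured at 27.3, 78.4 and 168 CPM, and PG_KO replicate 3 lay above ctr replicate 1. The gut groups therefore overlapped, with a log2 change of -1.51, or -2.28 without PG_KO replicate 3.

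Rdh7 and Rdh9 encode short-chain dehydrogenases that oxidise retinol and hydroxysteroids. They lie in a cluster of 7 genes and pseudogenes of 130 kb at chr10:127759726-127889247 (GRCm38.p6). Their start of translation is shown because it bears on which gene a read belongs to. The lines give the first 120 coding bases, from the longest open reading frame of GENCODE transcripts, with the 8 bases that differ between both genes in capitals.
Rdh7: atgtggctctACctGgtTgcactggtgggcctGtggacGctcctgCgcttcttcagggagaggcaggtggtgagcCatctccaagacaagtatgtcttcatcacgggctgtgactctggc
Rdh9: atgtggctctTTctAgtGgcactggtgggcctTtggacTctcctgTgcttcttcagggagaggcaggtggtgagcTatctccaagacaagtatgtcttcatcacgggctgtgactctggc
Over the whole frame Rdh7 and Rdh9 were identical at 85.2% of bases, and Rdh9 was identical to its neighbour Rdh16 at 96.3%, with 1 stretch of 229 identical bases. The share of stretches of 50 transcript bases that also occur in another gene of the table was 14.6% for Rdh9 (most with Rdh16) and 12.9% for Rdh7 (most with the pseudogene Rdh18-ps). Reads were divided between such copies by the authors, and fractional values occurred in 12 of 15 libraries for Rdh9 and 8 for Rdh7, so small levels of either gene are uncertain.

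Rdh7 (gene ID 54150, chr10:127884027-127889247) was measured at 12.4, 11.6 and 10.9 CPM in Tamoxifen organoids and had 0 reads in all 6 T75 libraries. Taking 3 reads over a group as the floor, it was at least 330-fold higher than in DMSO and at least 341-fold higher than in nativ organoids. Gut tissue held little of it: 0.337, 0.147 and 0.249 CPM in ctr, and 0.0176, 0 and 0.0284 CPM in PG_KO. The PG_KO libraries together held 1.33 reads, and the ctr level was 20.4 times as high (95% exact counting interval 3.24 to 847, with PG_KO taken as 1 read). Rdh7 did not pass the filter on low counts in gut.

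Rdh9 (gene ID 103142, chr10:127776405-127792697) showed the opposite distribution, with most of it in gut. Ctr gut held 57.8, 83.4 and 42.8 CPM and PG_KO gut 11.1, 6.76 and 8.96 CPM. The groups were far apart, 61.3 CPM ± 20.5 against 8.93 ± 2.16 (SD, n = 3 each), a log2 change of -2.75, which is the value the gene was chosen by. Organoids held 3.64, 3.76 and 4.38 CPM in Tamoxifen, 1.29, 2.85 and 3.12 CPM in DMSO, and 4.16, 3.87 and 2.94 CPM in nativ, and the Tamoxifen and nativ ranges overlapped. The log2 change against DMSO was 0.63, or 0.31 without DMSO replicate 1.

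Because reads can move between copies, the 7 genes of the cluster were also summed. The sum was 129, 257 and 192 CPM in ctr gut and 84.1, 60.1 and 86.9 CPM in PG_KO gut, with no overlap. This sum includes Rdh9, the gene chosen by its gut values. The 6 other genes summed to 70.8, 173.9 and 149 CPM in ctr and 73.0, 53.3 and 78.0 CPM in PG_KO, which overlapped through ctr replicate 1. Rdh9 made up 44.9%, 32.4% and 22.3% of the cluster in ctr and 13.2%, 11.3% and 10.3% in PG_KO. Its neighbour Rdh16 stood at 53.2, 147 and 106 CPM in ctr and between 38.3 and 48.4 CPM in PG_KO, also without overlap, with a log2 change of -1.19 (SE 0.37) and an adjusted p of 0.330 by edgeR's quasi-likelihood test.

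**Figure D1:**
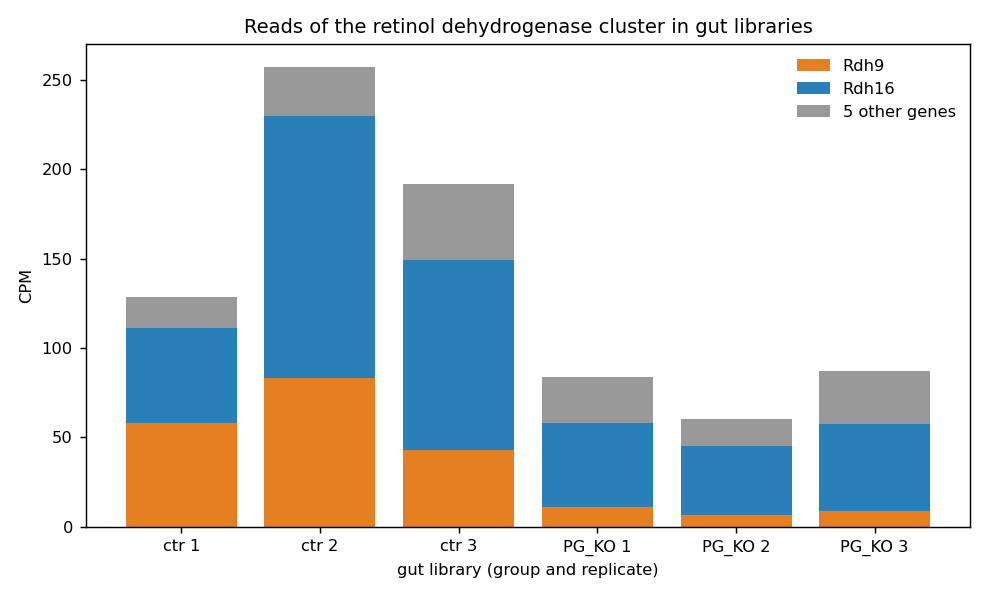
Stacked bars give CPM of Rdh9 (orange), Rdh16 (blue) and the 5 other genes of the chromosome 10 cluster (grey) in each of the 6 gut libraries. The summed height is 129 to 257 CPM in ctr and 60.1 to 86.9 CPM in PG_KO, and the orange part is 42.8 to 83.4 CPM in ctr and 6.76 to 11.1 CPM in PG_KO.

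Both retinal-oxidising genes were distributed differently from each other. Aldh1a1 (gene ID 11668, chr19:20492583-20643463) was expressed in every library. It read 126, 135 and 116 CPM in Tamoxifen, 143, 69.1 and 69.4 CPM in DMSO, and 65.6, 33.8 and 60.7 CPM in nativ organoids, so Tamoxifen lay above nativ (2.35-fold) and overlapped DMSO through DMSO replicate 1. Without that library the log2 change against DMSO was 0.77 in place of 0.36. Gut groups overlapped, at 26.3, 20.4 and 25.8 CPM in ctr and 27.4, 13.9 and 15.8 CPM in PG_KO, and the log2 change of -0.31 was -0.71 without PG_KO replicate 1. Its near copy Aldh1a7, identical at 91.6% of coding bases, was at most 19.4 CPM in any library.

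Aldh1a3 (gene ID 56847, chr7:66390892-66427477) was mainly a gut transcript. Ctr gut held 242, 69.2 and 228 CPM and PG_KO gut 267, 245 and 168 CPM, groups that overlapped, with ctr replicate 2 the lowest of the 6 libraries. The log2 change was 0.36, and 0.00 without ctr replicate 2. Tamoxifen organoids held 4.21, 3.68 and 3.51 CPM, DMSO organoids 0.237, 0.596 and 0.918 CPM and nativ organoids 0.360, 0.554 and 0.905 CPM. Tamoxifen lay above both T75 groups, 6.51-fold and 6.26-fold by their means, yet its mean was far under that of either gut group.

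Dhrs3 (gene ID 20148, chr4:144892534-144928209), the retinal reductase that retinoic acid is known to induce, was the only one of the 9 with a lower mean in Tamoxifen organoids than in both T75 groups. It read 39.6, 42.3 and 41.2 CPM in Tamoxifen, 36.8, 86.2 and 103 CPM in DMSO and 96.6, 85.5 and 95.1 CPM in nativ organoids. The Tamoxifen libraries lay under every nativ library (log2 change -1.29) but overlapped DMSO through replicate 1, with a log2 change of -0.95. Gut Dhrs3 was measured at 89.7, 49.3 and 46.8 CPM in ctr and 39.3, 44.5 and 39.4 CPM in PG_KO, without overlap, and the log2 change of -0.57 was -0.24 without ctr replicate 1. The gene lies within the span of Vps13d on the opposite strand, which reached 94.9 CPM. No exon bases of both overlap in GENCODE, and the strand setting of the counting is not given in the sources used here.

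**Figure D2:**
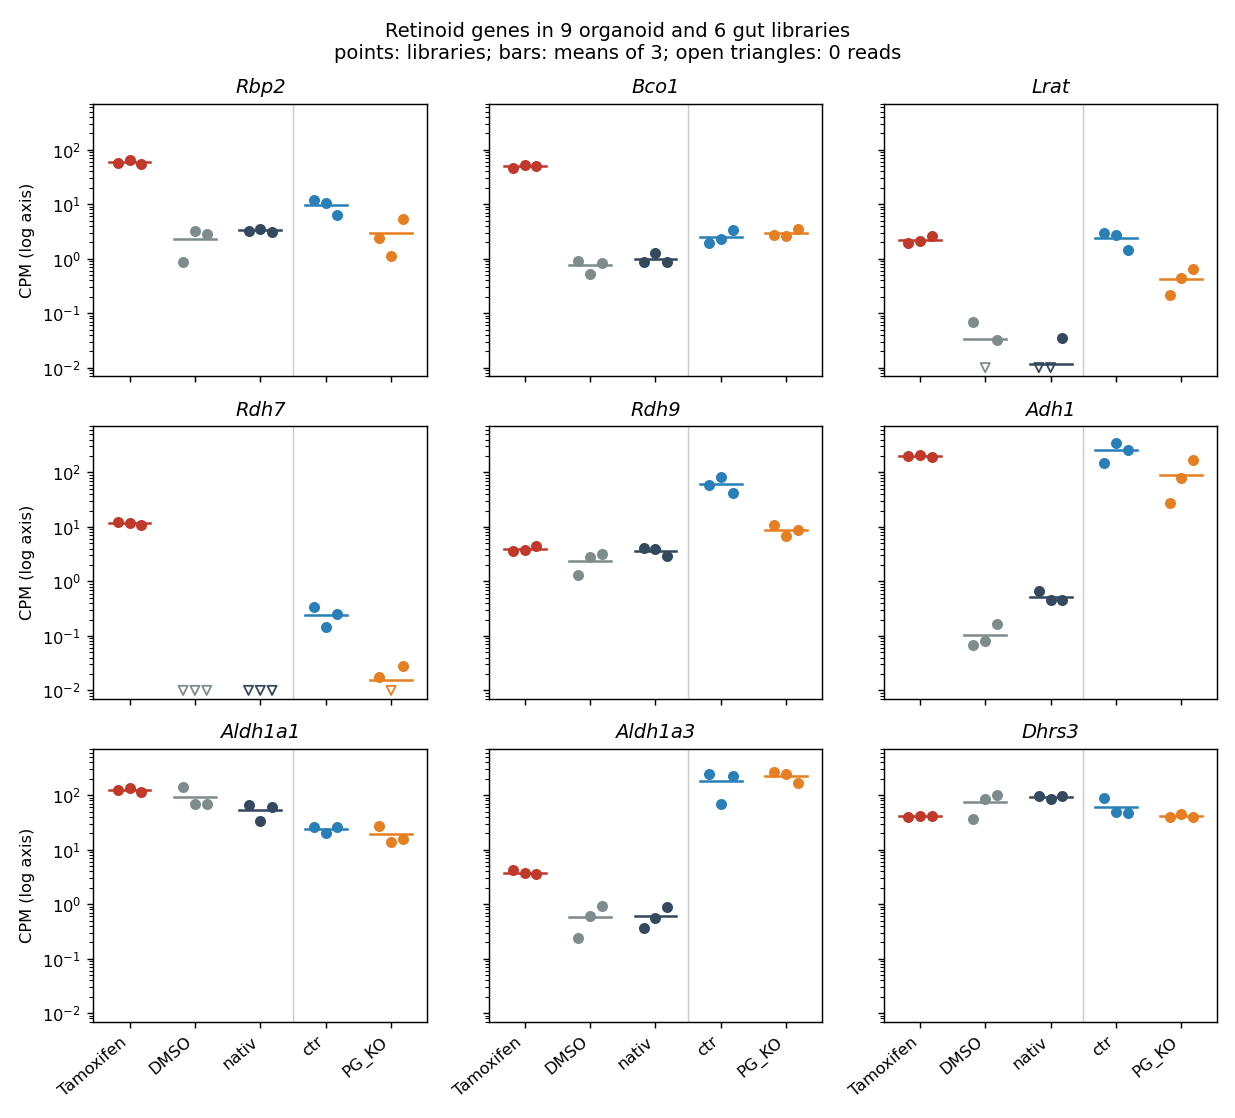
Each panel shows 1 gene, with CPM on a log axis, points for the 15 libraries, bars for the means of 3, and open triangles for libraries with 0 reads. In DMSO and nativ organoids Rdh7 has 0 reads and Lrat is at most 0.0677 CPM. Adh1 is at most 0.164 CPM in DMSO and 0.655 CPM in nativ organoids. Rdh9 and Aldh1a3 are highest in gut, and Aldh1a1 and Dhrs3 stay above 10 CPM in every library.

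Scaled by exon length (CPM per kilobase), which allows genes to be ranked, the leading members differed by group. In Tamoxifen organoids the level was highest for Adh1 (144 ± 6.90 SD, n = 3), followed by Rbp2 (88.0 ± 7.67), Aldh1a1 (41.6 ± 3.09) and Bco1 (11.8 ± 0.749), with no overlap between these neighbours. Aldh1a1 (31.1 ± 14.1) and Dhrs3 (13.6 ± 6.19) led in DMSO organoids. The same 2 led in nativ organoids, where their levels of 17.7 ± 5.66 and 16.6 ± 1.09 overlapped. Adh1 (183 ± 72.2) led in ctr gut, ahead of Aldh1a3 (52.9 ± 28.2) and Rdh9 (22.7 ± 7.61), which overlapped. In PG_KO gut Aldh1a3 (66.7 ± 15.3) and Adh1 (65.1 ± 50.7) overlapped at the top, and Rdh9 (3.31 ± 0.799) was the sixth. Lrat and Rdh7 were the last 2 of the 9 in 4 of the 5 groups, and in Tamoxifen organoids Lrat was last while Rdh7 overlapped Dhrs3.

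Over the whole set, 7 of 9 members were higher in Tamoxifen than in DMSO organoids without overlap and 0 were lower, beside 41.8% and 34.4% of the 16449 genes tested. Against nativ organoids 7 were higher and 1, Dhrs3, was lower, beside 43% and 31.6%. The median log2 change of the members was 4.62 against DMSO and 4.04 against nativ, also with Rdh7 at its lower bound, and that of all tested genes was 0.02 and 0.01. Both comparisons share the Tamoxifen libraries. In gut 0 of the 8 tested members were higher without overlap and 4 were lower (Rbp2, Lrat, Rdh9 and Dhrs3), beside 9.97% and 8.67% of 18043 genes. The median was -1.04 for these members and -0.03 for all genes. Since the genes were partly chosen by these contrasts, nothing is read from the counts.

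**Figure D3:**
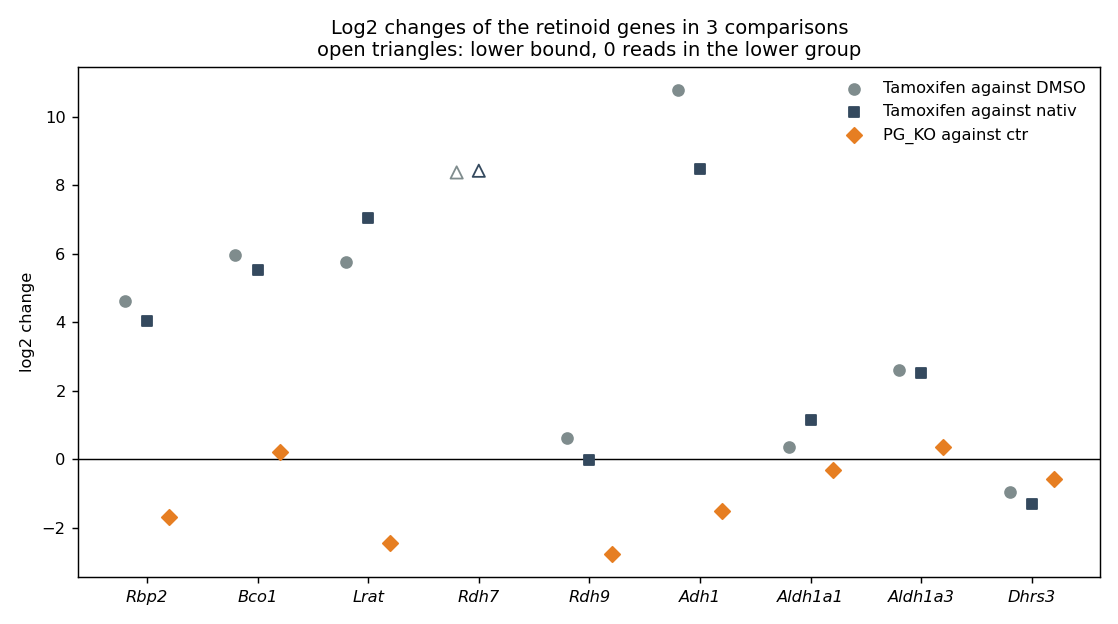
Fitted log2 changes of the 9 genes are plotted for Tamoxifen against DMSO (circles), Tamoxifen against nativ (squares) and PG_KO against ctr (diamonds), with open triangles for lower bounds where the other group had 0 reads. Rbp2, Lrat and Adh1 lie above 0 in both organoid comparisons and under 0 in gut, and Rdh9 is near 0 against nativ (-0.02) and lowest in gut (-2.75).

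The gut groups also differed in what else the tissue contained. The 6 smooth muscle markers summed to 4263, 3385 and 658 CPM in ctr and 598, 879 and 1151 CPM in PG_KO. Lymphocyte markers summed to 180 to 499 CPM in ctr and 73.9 to 138.5 CPM in PG_KO. Of these, 2 of 6 were lower without overlap, beside 8.67% of all genes, and 0 were called. Fibroblast markers spanned 919 to 3627 CPM in ctr and 629 to 1367 CPM in PG_KO, and no marker of these 3 lists was at 0 reads in either gut group. The 7 epithelial markers summed to 7582, 8872 and 12270 CPM in ctr and 15030, 11990 and 14090 CPM in PG_KO. Of these, 1 of 7 was higher without overlap, beside 9.97% of all genes, and 0 were called. The keratin genes differed most between the ctr and PG_KO means: Krt8 (3110 and 4884 CPM), Krt19 (2338 and 3901) and Krt18 (351 and 668). Epcam (1230 and 1387 CPM), Cdh1 (1153 and 1282), Vil1 (681 and 751) and Cldn7 (712 and 833) differed less. The sum is therefore weighted to keratin levels and is no measure of the amount of epithelium. The part of these lists in the retinoid values was not tested, but the gut values were also computed relative to the epithelial sum, an alternative added after seeing the data. That scale moves genes down in general, by an amount that depends on the libraries that hold their reads. The median log2 ratio of all 18043 genes was -0.60 on it and -0.04 by CPM, and 21.8% of genes were lower and 0.333% higher without overlap. On that scale the log2 ratio of means was -3.41 for Rdh9, -3.10 for Lrat, -4.67 for Rdh7, -2.38 for Rbp2, -2.01 for Adh1, -1.22 for Dhrs3 and -0.94 for Aldh1a1, each with all PG_KO libraries under all ctr libraries. Bco1 had -0.30 without overlap and Aldh1a3 -0.22 with overlap. Both are above the median of all genes, so nothing is read from their negative sign here or from the count of 8 of 9 members lower. Colon markers summed to 1082 to 1953 CPM in ctr and 713 to 1241 CPM in PG_KO. Of these, 1 of 5 was lower without overlap, beside 8.67% of all genes by CPM, and 0 were called.

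DMSO against nativ organoids is the comparison that played no part in choosing the genes. Of the 9 members 0 passed edgeR's quasi-likelihood test, beside 0% of all 16449 genes, and 2 had an unadjusted p under 0.05. Over all genes 2408 had an unadjusted p under 0.05, and DESeq2 called 138. Adh1 was the lower of them, with 0.104 CPM ± 0.0525 in DMSO and 0.519 CPM ± 0.118 in nativ (SD, n = 3 each), a log2 change of -2.31 (SE 0.32), an edgeR adjusted p of 0.291 and no overlap in 3 against 3 libraries. Of the alternatives, DESeq2 called it (log2 change -2.34, adjusted p 0.00758), as did edgeR without the filter on low counts (adjusted p 0.0438), over a range of 0.00758 to 0.604. These levels rest on 9 reads in DMSO and 46 in nativ organoids. Aldh1a1 was higher in DMSO without overlap, by 0.78 on the log2 scale with an SE of 0.27 (adjusted p 0.296 in edgeR), or 0.36 without DMSO replicate 1. So 1 member was higher and 1 lower without overlap, beside 7.08% and 7% of all genes. Rdh7 had 0 reads in both groups, and Lrat had 3 reads over DMSO and 1 over nativ organoids. Both genes passed the low-count filter only through the Tamoxifen libraries, so nothing is read from their results here. The 6 members other than Adh1, Aldh1a1 and Rdh7 overlapped, with edgeR adjusted p between 0.347 and 0.934, which does not show that they are alike.

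Libraries of 1 group also differed. Over all genes, nativ replicate 2 stood furthest from its group among the T75 organoids (chi-square per degree of freedom 105 and 98.7 against the other nativ libraries, which differed by 7.99). It held the low nativ values of Aldh1a1 (33.8 CPM) and Stra6 (39.3 CPM). For DMSO replicate 1 these values were 52.9 and 57.4, beside 29.7 between the other DMSO libraries. DMSO replicate 1 stood apart from both in several genes of the route. It had less Rbp2, Rdh9, Aldh1a3 and Dhrs3 and more Aldh1a1, as given above. It also held less Rdh10, the main retinol dehydrogenase of the embryo (50.4 CPM beside 122 and 128), less Cyp26b1, which degrades retinoic acid (0.677 CPM beside 5.96 and 10.6), and less Cyp2s1 (111 CPM beside 301 and 407). Without it, the DMSO against nativ change of Dhrs3 was -0.01 in place of -0.34, and that of Rbp2 was -0.17 in place of -0.58. By chi-square per degree of freedom, Tamoxifen libraries differed by only 2.21 to 3.72. Gut libraries differed by 79.0 to 203 in ctr and by 52.5 to 94.6 in PG_KO. All organoid libraries share 1 estimate of the spread, so the SEs of DMSO against nativ also draw on the Tamoxifen libraries.

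Another 53 genes of retinoid handling were listed by role, of which 51 were in the tables. In Tamoxifen against DMSO organoids 37 were tested, and edgeR called 16 higher and 15 lower (adjusted p under 0.05), beside 33.9% and 32.4% of all genes. Against nativ organoids it called 15 higher and 17 lower, beside 33.5% in each direction. The medians of the 37 were -0.19 and -0.01.

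Both carotenoid genes were called higher in both comparisons, beside 33.9% and 33.5% of all genes. Isx, the repressor of Bco1, stood at 62.7, 61.6 and 61.8 CPM in Tamoxifen organoids, had 0 reads in DMSO and 2 reads over nativ organoids (edgeR adjusted p 1.96e-09 and 2.15e-09). Bco2, which cleaves carotenoids off centre, rose to 21.4 CPM ± 1.08 from 0.967 ± 0.459 in DMSO and 0.653 ± 0.343 in nativ organoids, log2 changes of 4.38 and 4.91 (SE 0.31 and 0.32, edgeR adjusted p 4.48e-07 and 2.70e-07). Isx and Bco1 were thus both high in the same Tamoxifen libraries. In gut Isx was measured at 28.6, 34.8 and 42.4 CPM in ctr and 23.1, 21.0 and 26.1 CPM in PG_KO, lower without overlap but not called (log2 change -0.58, SE 0.21, edgeR adjusted p 0.330).

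Hydrolysis and esterification genes were called higher in 4 of 5 tested in both comparisons, beside 33.9% and 33.5% of all genes. Pnliprp2, a pancreatic lipase relative, stood at 64.0, 64.2 and 57.6 CPM in Tamoxifen organoids with 2 reads over DMSO and 10 over nativ (edgeR adjusted p 1.13e-08 and 1.45e-08). Plb1, a brush border enzyme that hydrolyses retinyl esters, rose from 0.290 CPM ± 0.230 in DMSO to 10.2 ± 0.625 (log2 change 5.08, SE 0.46, edgeR adjusted p 3.24e-06). Of 7 tested retinol-oxidising genes, 3 were called higher and 1 lower against DMSO, beside 33.9% and 32.4% of all genes. Against nativ organoids 3 were called higher and 2 lower, beside 33.5% of all genes in each direction. Among them Adh4 read 7.22, 6.05 and 6.08 CPM in Tamoxifen organoids against 0 reads in DMSO and 1 in nativ (edgeR adjusted p 3.73e-07 and 4.32e-07). Rdh10 was called lower, at 26.8 CPM ± 2.10 in Tamoxifen beside 100 ± 43.0 in DMSO organoids (log2 change -1.97, SE 0.29, edgeR adjusted p 0.000134). All 4 tested retinal reductases, Rdh11, Rdh13, Rdh14 and Dhrs4, were called higher in both comparisons, beside 33.9% and 33.5% of all genes. They kept these calls under library totals, RLE factors and DESeq2. Dhrs4 was the one with the highest log2 change against DMSO (1.82, SE 0.12), and Rdh11 rose from 36.9 CPM ± 7.90 to 123 ± 3.57. Dhrs3, a member with the same reaction, did not follow them.

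Of the 8 tested genes of retinol uptake and lipid carriage, 3 were called higher and 4 lower against DMSO, and 2 higher and 5 lower against nativ organoids. The shares of all genes were 33.9% and 32.4% against DMSO, and 33.5% in each direction against nativ. Stra6, the cell surface receptor for retinol bound to RBP4, fell to 0.100, 0.163 and 0.0358 CPM in Tamoxifen organoids from 60.5, 110 and 130 CPM in DMSO and 92.9, 39.3 and 114 CPM in nativ organoids (edgeR adjusted p 1.56e-07 and 2.00e-07). Rbp4, the blood carrier of retinol, fell from 14.6 CPM ± 2.95 in DMSO to 1.42 ± 0.401 (log2 change -3.42, SE 0.25, edgeR adjusted p 5.70e-07).

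Of the 5 tested receptors, all were called lower against DMSO, and all but Rxra against nativ organoids (Rxra log2 change -0.01, edgeR adjusted p 0.927). The shares of all genes called lower were 32.4% and 33.5%. Rarb, itself a known target of retinoic acid, fell furthest, from 3.88 CPM ± 0.242 in DMSO to 0.0802 ± 0.0731 (log2 change -5.61, SE 0.40, edgeR adjusted p 5.03e-07), and the others were Rarg (-1.66), Rxrb (-0.72), Rara (-0.57) and Rxra (-0.33). With library totals in place of TMM factors Rxra lost its call against DMSO (-0.26, adjusted p 0.0666), while the other 4 kept direction and call under library totals, RLE factors and DESeq2.

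In DMSO against nativ organoids 0 of these 37 genes were called by edgeR, beside 0% of all genes. Of the 37, 10 had an unadjusted p under 0.05, beside 2408 of all 16449 genes. Some of the 37, such as Isx (0 and 2 reads) and Adh4 (0 and 1), entered this test only through Tamoxifen libraries. Nothing is read from their results here. The 2 smallest p-values were those of Rxra (log2 change 0.32, SE 0.08) and Aldh1a2 (-1.64, SE 0.45), both with an edgeR adjusted p of 0.291, and DESeq2 called 1, Rxra (adjusted p 0.0152). In gut 41 were tested, 0 were called by edgeR, beside 0% of all genes, and 7 had an unadjusted p under 0.05. Over all genes 2705 had one, and DESeq2 called 431. Cyp2s1, a cytochrome P450 able to oxidise retinoic acid, was measured at 18.2, 25.6 and 19.4 CPM in ctr and at 36.9, 57.2 and 41.2 CPM in PG_KO, higher without overlap (log2 change 1.10, SE 0.21, edgeR adjusted p 0.330), and DESeq2 called it alone (adjusted p 0.00728). Without ctr replicate 3 edgeR called 2 lower, Stra6 (log2 change -1.94, adjusted p 0.0353) and Lipe (-1.08, adjusted p 0.0405), while its calls over all genes went from 0 to 374 higher and 1104 lower. Of the 41, 7 were lower and 1 higher without overlap, beside 8.67% and 9.97% of all genes. Their median was -0.29, beside -0.03 for all genes.

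**Figure D4:**
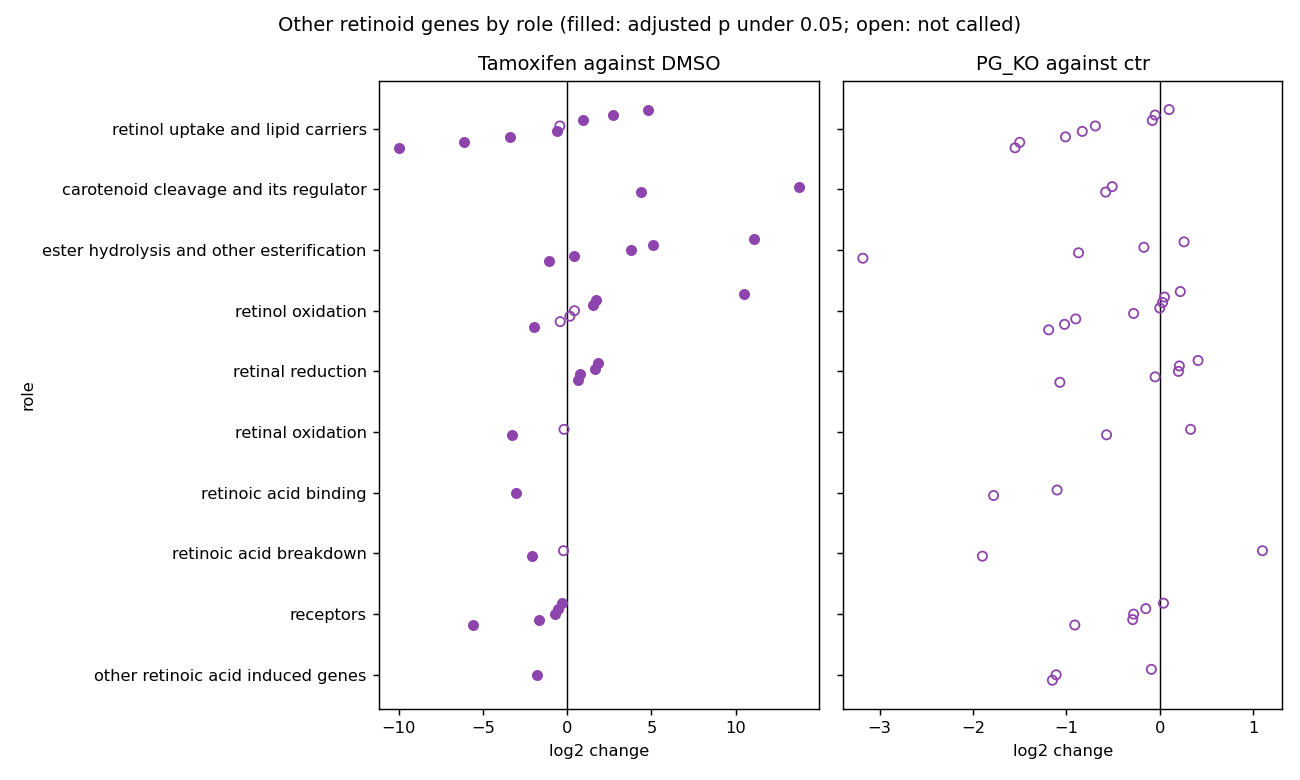
Log2 changes of the tested other retinoid genes are plotted by role for Tamoxifen against DMSO (left) and PG_KO against ctr (right, on a narrower axis), filled where the edgeR adjusted p was under 0.05. The 3 points beyond 10 on the left are fitted values of genes with 0 to 2 reads in DMSO (Isx, Pnliprp2 and Adh4) and are no bounds. All 5 receptors are filled and under 0 on the left, all 4 retinal reductases are filled and above 0, and no gene is filled on the right.

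Across the 15 libraries, some members varied together. Pearson correlations of log2 CPM (prior count 2) were 0.95 for Rdh7 with Bco1, 0.94 for Rdh7 with Rbp2 and 0.93 for Adh1 with Lrat, and -0.81 for Aldh1a3 with Aldh1a1. The points fall into 5 groups and 2 tables, so these values describe mainly differences between groups. Among 14692 genes, the 2 most like each member were Cyp3a13 and Odf3b for Rbp2 (0.948 each), Ms4a18 (0.989) and Rab4a (0.988) for Bco1, Gal3st2b (0.980) and Slco2b1 (0.977) for Lrat, and Ang4 (0.988) and Slc27a2 (0.984) for Rdh7. For Adh1 they were Phgr1 (0.996) and Atoh1 (0.987), and for Rdh9 the antibody segment Igkv4-57 (0.960) and H2ac18 (0.953). Aldh1a3 was most like Hoxaas3 and Dhrs9 (0.986 each), Aldh1a1 like Usp32 (0.976) and Hipk2 (0.971), and Dhrs3 like Tmem71 (0.943) and Zfp263 (0.938). Phgr1 shared the order of group means with Adh1 and not its scale. Its mean was 126 CPM in Tamoxifen organoids, 16.2 in DMSO, 22.1 in nativ, 151 in ctr and 109 in PG_KO gut. For Adh1 these means were 202, 0.104, 0.519, 256 and 91.2 CPM.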

How the data were processed

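The deposited values are expected counts, reads per gene that the authors did not scale, with 45905 genes in each of the organoid and gut tables. Per the submitters' processing notes, reads were handled with STAR 2.7.2b and featureCounts 1.6.4 (Subread), and the notes also name cutadapt 2.5, bcl2fastq 2.20.0.422, DESeq2 and the build GRCm38.p6. Values that are not whole show that the authors divided some reads between features. Per the labels' protocols, RNA was isolated with TRIZOL and poly(A) RNA went into TruSeq libraries. Depth was 23194385 to 30744563 reads per library.

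Counts were rounded to whole reads and tested with the quasi-likelihood test of edgeR 4.0.16 (R 4.3.3), using TMM factors and filterByExpr. P-values were adjusted by Benjamini-Hochberg across every gene tested, with calls at an adjusted p under 0.05. All 9 organoid libraries entered 1 fit and the 6 gut libraries another. CPM and CPM per kilobase use library totals and the tables' exon lengths. DESeq2 1.42.0 was an alternative, beside RLE factors, library totals, other low-count filters, a replicate block, leaving out single libraries, and fits restricted to 2 groups. Scaling to epithelial markers, and leaving out ctr replicate 1 with PG_KO replicate 3, were added after seeing the data. The tests were tested on simulated data.

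The 9 genes, the lists and the tests were chosen with earlier results of these data known. Genes named beside them are, per comparison, up to 4 called genes of the retinoid list with the largest change in each direction at 1 CPM or more in a group (or the 2 smallest p where none was called), near copies, and the 2 most correlated genes per member. Rdh10, Cyp26b1, Rdh11, Rdh13, Rdh14, Dhrs4, Lipe, Rara, Rarg and Rxrb were named after their values were seen. A gene that the rule also names is not reported here. Python 3.11.15 with matplotlib 3.10.9 drew the figures.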

Additional observations from a re-analysis of the deposited data

Results flagged for a closer look

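Rbp2, Lrat and Rdh7 were lower in PG_KO than in ctr gut but higher in Tamoxifen than in T75 organoids, without overlap in each. Rbp2 had a log2 change of -1.67 in PG_KO against ctr gut, and of 4.62 and 4.04 in Tamoxifen organoids against DMSO and nativ. Lrat had -2.45 in gut and 5.75 and 7.05 in organoids, where DMSO held 3 reads and nativ 1. For Rdh7 the log2 ratio of mean CPM was -3.99 in gut. It rests on 1.33 reads in PG_KO, so its size is hardly known: with PG_KO taken as 1 read, the ratio of summed reads was 20.4 with a counting interval of 3.24 to 847. In organoids the fold was at least 330 against DMSO. The difference between gut and organoids was not tested. Tamoxifen and T75 organoids also differ in code, Cre, drug and in their enterocyte and duct markers, and these cannot be told apart.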

How the results depend on the processing

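Directions and calls were recomputed under each alternative. Of 183 values for whole lists, 175 kept their direction and call, or moved by less than 1.5 times for counts and less than the spread for medians. The median of the members against DMSO was 4.62 and ranged from 4.21 to 4.97 when single libraries were left out, the ends being without DMSO replicates 1 and 2. In gut it was -1.04 and ranged from -1.40 (without PG_KO replicate 3) to -0.89. In DMSO against nativ, 1 member (Adh1) was called by DESeq2 and 1 without the low-count filter, and DESeq2 called 1 other retinoid gene higher there and 1 in gut, where edgeR called 0. The other retinoid genes called lower in gut numbered 0 to 2 when single libraries were left out, with 2 only without ctr replicate 3. Library totals moved the median of all genes to 0.13 in Tamoxifen against nativ.

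Replicate numbers recur between groups, but not every same-numbered pair deviated together: correlations of deviations from group means were -0.12 to 0.18 in organoids, and 0.29, -0.18 and 0.15 in gut, and a library correlated best with its own number in 3 of 12 pairs. With the replicate number as a block, the members' median was 4.67 against DMSO, 4.05 against nativ and -1.14 in gut, and other retinoid genes called against nativ were 15 higher and 16 lower. With 3 libraries a group, small changes in gut stay beyond these data, and levels of a few reads (Lrat, Rdh7 and Adh1 in T75 organoids) are limited by depth.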
